A study of Oryctolagus cuniculus with 2 samples.

Results

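Clusters 19 and 24 are the groups of rabbit retinal nuclei that the authors labelled horizontal cells and whose horizontal cell score was low. The members were chosen by the label and the cluster number in the authors' table of nuclei, both of which rest on the counts of these nuclei, and were set apart from the other horizontal-labelled cluster on that score. They held 112 of the 6542 nuclei, 70 in cluster 19 and 42 in cluster 24. The remaining 69 nuclei labelled horizontal cells formed cluster 20, in which that score was high. The nuclei came from frozen 5 mm retinal punches of the visual streak, taken from wild-type rabbits and from rabbits with a CLRN1 knockout, all of them 10 months old. The sources used here do not state how the knockout allele was made. For each genotype, equal amounts of nuclei from 3 animals went into a single droplet library, which gave 3484 wild-type and 3058 knockout nuclei. Because there is 1 library on each side, differences between them have no replicate check and were not tested, and an effect of genotype cannot be told apart from one of the animals or of the library. The clusters and labels were made by the authors from these same nuclei, so the values below describe them and test nothing.

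Horizontal cells are inhibitory interneurons of the outer retina. They receive input from photoreceptors and feed back onto their terminals, which sharpens contrast between neighbouring points of the image, and they are coupled to each other by gap junctions. Rabbits have an axonless A-type and an axon-bearing B-type. Amacrine cells are inhibitory interneurons of the inner retina, which act on bipolar cell terminals and ganglion cells, and they are the most diverse neurons of the retina. Horizontal and amacrine cells arise from related progenitors and share several transcription factors, so that some genes mark both.

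The horizontal cell score of both clusters was low although they carry the horizontal label. The table of nuclei gives 9 module scores, 1 for the gene list of each cell type, named like those of Seurat's module score, which sets the log level of a list against that of control genes. How the authors computed them is not stated. Cluster 19 had a median horizontal score of 0.20 (quartiles −0.11 and 0.33) and cluster 24 one of 0.19 (−0.11 and 0.44), whereas cluster 20 reached 1.61 (1.31 and 1.82). These score values set the clusters apart and are given as a description. Over both libraries together the horizontal score still had the highest median of the 9 in each cluster, but in the wild-type nuclei of cluster 24 the rod score was higher, at 0.17 against −0.07. In cluster 19 the amacrine score followed at 0.11, and in cluster 24 the amacrine score was −0.09. The median rod score was −0.27 and −0.11, and those of the cone, general photoreceptor, bipolar, ganglion cell and Müller glia lists were all below 0. Nucleus by nucleus, the horizontal score was the highest of the 9 in 27 of 70 nuclei of cluster 19 (38.6%, exact 95% interval 27.2 to 51.0%) and in 18 of 42 of cluster 24 (42.9%, 27.7 to 59.0%), against 62 of 69 in cluster 20 (89.9%, 80.2 to 95.8%). The amacrine score was the highest in 20 nuclei of cluster 19 and in 5 of cluster 24, the rod score in 7 and 9, and the Müller glia score in 9 and 6. Amacrine-labelled cluster 12 was near cluster 19 in this. There the horizontal score was the highest in 43 of 118 nuclei (36.4%, 27.8 to 45.8%) and the amacrine score in 36 (30.5%, 22.4 to 39.7%). These intervals, like all others printed here, are at 95%. Those of counts and shares cover counting error only, and those of medians the sampling of nuclei. None covers the spread between animals.

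The horizontal score left a gap around 0 in both clusters. In cluster 19, 30 nuclei lay at −0.06 or lower and 40 at 0.10 or above, with none between. In cluster 24, 20 nuclei lay at −0.03 or lower and 22 at 0.16 or higher. The upper groups had medians of 0.30 and 0.43, far below the median of cluster 20, and 7 of 70 and 8 of 42 nuclei exceeded 0.5, against 65 of 69 in cluster 20. Amacrine-labelled cluster 12 had the same shape, with 43 nuclei at −0.05 or lower, 75 at 0.14 or higher and an upper median of 0.36. The highest nucleus of cluster 24, from the wild-type library, reached 1.45.

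**Figure D1:**
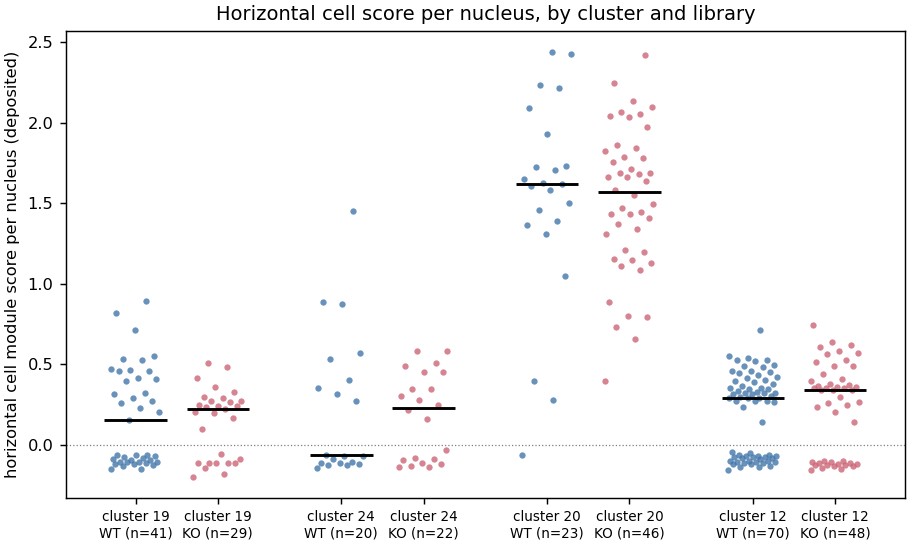
Deposited horizontal cell score of every nucleus (points) in clusters 19, 24, 20 and 12 by library, with the median as a bar. In clusters 19, 24 and 12 the nuclei fall into a group under 0 and a group above 0, whereas 68 of 69 nuclei of cluster 20 lie above 0.

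The gene list behind the score was not used here, and the count matrix has numbered rows that the files do not pair with gene names, so no gene could be named, and the horizontal label could not be checked against marker genes. The rows behind the score were instead found by fitting it, over all 6542 nuclei, with log-normalised matrix rows added one at a time. 4 rows, numbered 8526, 3384, 8228 and 5843, gave 96.6% of its variance (R2), with nearly equal coefficients of 0.23 to 0.24. The next row added less than 0.01 to R2. Every nucleus of clusters 19, 24 and 20 with a score above 0 had a UMI (unique molecular identifier, standing for 1 captured transcript) of at least 1 of these 4 rows, at 40 of 40, 22 of 22 and 68 of 68, and no nucleus at or below 0 had one.

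Of these 4 rows only the first, row 8526, was frequent in clusters 19 and 24. It was found in 38 of 70 nuclei of cluster 19 (54.3%, 41.9 to 66.3%) and in 17 of 42 of cluster 24 (40.5%, 25.6 to 56.7%), against 61 of 69 in cluster 20 (88.4%). In the summed counts of cluster 19 its level was 357 CPM (counts per 1e6 UMIs, exact Poisson interval 277 to 452), that of cluster 24 was 335 (222 to 484) and that of cluster 20 was 767 (670 to 874). It was not restricted to horizontal-labelled nuclei: amacrine cluster 12 had it at 494 CPM (416 to 582), bipolar cluster 6 at 302 (257 to 351), rod-labelled clusters 9 and 10 at 189 and 211, Müller glia cluster 8 at 147 and amacrine cluster 5 at 60.1. The other 9 amacrine clusters had it at 19.2 CPM or lower. The main rod clusters 0, 1 and 3 serve as a low comparison, since free RNA itself was not measured, and there it was found in 0.649% of nuclei at 7.53 CPM. The median depth was 798 UMIs in those rods, 2679.5 in cluster 19 and 1915 in cluster 24. With every nucleus thinned to 500 UMIs, which kept all members, cluster 19 had a share of 12.9%, cluster 24 one of 19.05%, cluster 20 one of 26.1% and cluster 12 one of 18.6%, while these rods had 0.422%.

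The other 3 rows were scarce in clusters 19 and 24. All 4 rows were found from the score on which these clusters were set apart from cluster 20, so their levels describe what the low score consists of and are no separate evidence. Row 8228 was found in 63 of 69 nuclei of cluster 20 at 808 CPM (708 to 918). It had 1 UMI in all of cluster 19, and none in cluster 24, which allows up to 35.8 CPM there (3 UMIs of the total). Row 5843 was at 324 CPM (262 to 396) in cluster 20, had no UMI in cluster 19, which allows up to 15.7 CPM, and had 2 UMIs in cluster 24. Row 3384 was at 784 CPM (686 to 892) in cluster 20 and at 21.0 CPM (5.72 to 53.7) in cluster 19, an interval that holds the 11.3 CPM of rod clusters 0, 1 and 3. In cluster 24 it was found in 7 of 42 nuclei at 95.6 CPM (41.3 to 188), above those rods and near the 62.5 CPM (46.5 to 82.2) of amacrine cluster 5. Row 8526 alone therefore made up 88.6% of the summed mean log level of the 4 rows in cluster 19 and 68.6% for cluster 24, where cluster 20 had 27.6% and cluster 12 had 99.3%.

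Within a single nucleus the 4 rows rarely occurred together in clusters 19 and 24. At least 2 of them were found in 3 of 70 nuclei of cluster 19 (4.29%, 0.893 to 12.02%) and in 4 of 42 of cluster 24 (9.52%, 2.66 to 22.6%), and 3 or 4 of them in no nucleus of either. In cluster 20, 65 of 69 nuclei (94.2%, 85.8 to 98.4%) had at least 2, and 34 had all 4. Of the nuclei with a score above 0, 35 of 40 in cluster 19 and 13 of 22 in cluster 24 had row 8526 and none of the other 3, against 1 of 68 in cluster 20. This was so in 74 of 75 in cluster 12, 53 of 54 in cluster 9, 36 of 39 in cluster 10 and 82 of 103 in bipolar cluster 6.

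**Figure D2:**
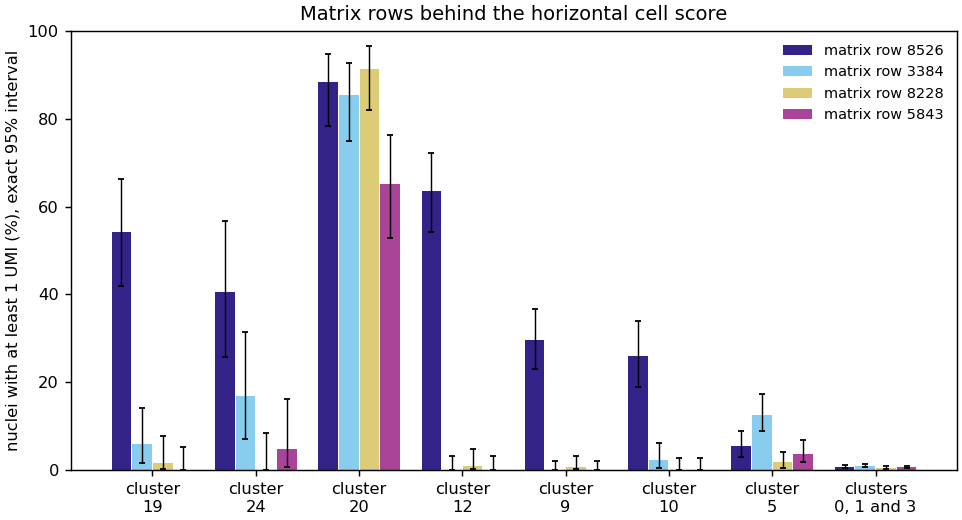
Share of nuclei with at least 1 UMI of each of the 4 matrix rows behind the horizontal score (bars, exact 95% intervals), in clusters 19, 24 and 20, amacrine clusters 12 and 5, and rod-labelled clusters 9, 10 and 0, 1 and 3 together. Row 8526 reaches 54.3% and 40.5% in clusters 19 and 24, whereas rows 8228 and 5843 stay under 5% there and at 91.3% and 65.2% in cluster 20.

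The amacrine score was fitted in the same way. 5 rows gave 95.1% of its variance, and a further row with a like coefficient of 0.15 added too little to be counted. Taken in the order in which the fit added them, cluster 19 had the second row in 40 of 70 nuclei at 336 CPM (259 to 429) and the last but one in 12 nuclei at 78.7 CPM, whereas the third and the last had no UMI and the first was at 41.98 CPM. In cluster 24 the second row was found in 19 of 42 nuclei at 275 CPM (174 to 412), the last but one had 2 UMIs and the others had none. Amacrine cluster 5 had the second row at 457 CPM and also the first at 424, the third at 282 and the last at 197 CPM, while the last but one was at 14.7 CPM. Cluster 20 had the first row at 402 CPM, the second at 106 and no UMI of the rest. The second row was at 170 and 172 CPM in rod-labelled clusters 9 and 10. Both scores of clusters 19 and 24 therefore came mostly from 1 row of each list.

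Over matrix rows at the settings given next, clusters 19 and 24 were less like cluster 20 than like any amacrine cluster. This was not particular to amacrine clusters, since bipolar cluster 6 and rod-labelled cluster 2 were above cluster 20 too, at 0.817 and 0.832 for cluster 19. Counts were summed per cluster over both libraries and compared as log2(CPM + 10) over the 12740 rows that reached 10 CPM in any cluster. These correlations across rows describe the sums, whose rows are not independent and which share libraries and free RNA. Cluster 19 was most like amacrine cluster 5 (r = 0.894), followed by rod-labelled cluster 9 (0.887), ganglion cell cluster 7 (0.872), amacrine cluster 13 (0.868) and rod-labelled cluster 10 (0.866). The remaining amacrine clusters lay between 0.809 (cluster 22) and 0.852 (cluster 11). Cluster 20, at 0.795, was the 18th of the 25 other clusters, below all 11 amacrine clusters, and those under it were Müller glia, cones, rod-labelled clusters 0, 1, 3 and 16 and ganglion-labelled cluster 14.

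Cluster 24 was most like rod-labelled clusters 9 (r = 0.858) and 10 (0.845), then amacrine cluster 5 (0.830), cluster 19 (0.827) and amacrine cluster 13 (0.821). The other amacrine clusters lay between 0.754 (clusters 18 and 22) and 0.806 (cluster 21). Cluster 20, at 0.744, was again the 18th of 25 and below all 11 amacrine clusters. Bipolar cluster 6 (0.771) and rod-labelled cluster 2 (0.788) were above it as well. Cluster 20 itself reached 0.828 with its most similar cluster, amacrine cluster 5. Cluster sums differed in depth, at 190581 UMIs for cluster 19, 83684 for cluster 24 and 293321 for cluster 20, and shallow sums correlate less. With all sums thinned to 83684 UMIs, all 11 amacrine clusters were still above cluster 20 for both, while with nuclei thinned to 500 UMIs 8 of 11 were. Over 9 settings cluster 5 was the first or second for cluster 19, and cluster 9 was the first for cluster 24 in each.

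**Figure D3:**
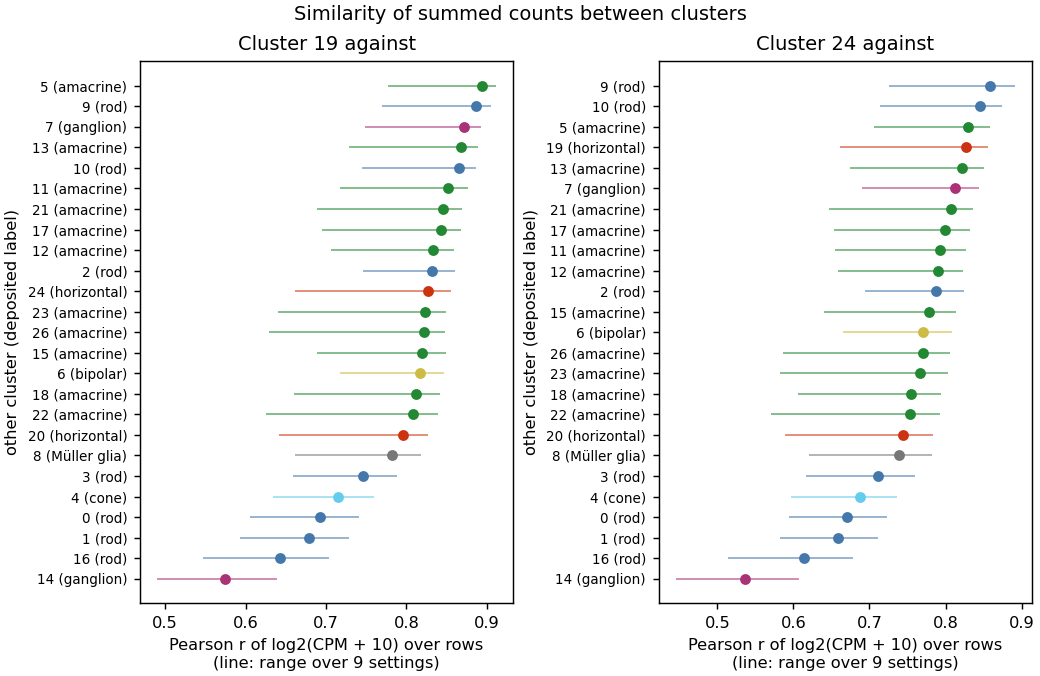
Pearson correlation of summed counts, as log2(CPM + 10) over matrix rows, of cluster 19 (left) and cluster 24 (right) with each of the other 25 clusters, coloured by deposited label; lines give the range over 9 settings. Cluster 5 is highest for cluster 19 (0.894), cluster 9 for cluster 24 (0.858), and cluster 20 is 18th in both.

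Single nuclei were compared with the same clusters. Each nucleus was set against the profiles of the 24 clusters other than 19 and 24, thinned to equal totals, by its multinomial likelihood. In cluster 19, 63 of 70 nuclei (90%, 80.5 to 95.9%) were nearest to amacrine cluster 5, 5 to cluster 9, 1 to cluster 10 and 1 to amacrine cluster 13. In cluster 24 all 42 nuclei (interval from 91.6%) were nearest to rod-labelled cluster 9. No nucleus of either cluster was nearest to cluster 20, and in all 112 an amacrine cluster had a higher likelihood than cluster 20. The latter comparison was uneven, since the best of 11 amacrine profiles was set against 1 profile. The nearest profile is the best of those offered and does not show that a nucleus belongs to it.

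Rows that differed by a large factor were more frequent against cluster 20 than against clusters 5 and 9. Rows were compared where they reached 50 CPM in 1 of the clusters and 20 UMIs over both, and a row was counted when it differed at least 4-fold, with counts under 3 UMIs set to 3. Between clusters 19 and 20, 550 of 3827 rows differed (14.4%), 301 higher (7.87%) and 249 lower (6.51%) in cluster 19. Between clusters 24 and 20 it was 410 of 3246 rows (12.6%), 219 higher (6.75%) and 191 lower (5.88%) in cluster 24. For cluster 19 it was 270 of 4219 rows against amacrine cluster 5 (6.4%) and 242 of 4091 against cluster 9 (5.92%), so that cluster 9 came before cluster 5 by this measure. For cluster 24 it was 250 of 4249 against cluster 5 (5.88%) and 136 of 3873 against cluster 9 (3.51%). Clusters 19 and 24 differed from each other in 197 of 2775 rows (7.1%). As a scale, cluster 20 differed from amacrine cluster 5 in 640 of 4143 rows (15.4%). With the sums thinned to equal totals these percentages were 18.2, 19.7, 8.73, 7.52, 10.7, 5.72, 9.4 and 17.1 in the same order. Some ranks changed with depth. At equal totals cluster 20 differed less from cluster 5 (17.1%) than from clusters 19 and 24 (18.2% and 19.7%). Cluster 24 then differed more from cluster 5 (10.7%) than from cluster 19 (9.4%).

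The rows that led other clusters were then summed in clusters 19 and 24. For each other cluster these were the 50 rows with the highest ratio of its CPM to that of all other nuclei, chosen without the nuclei of clusters 19 and 24. The 50 rows that led cluster 20 held 4.28% of its own UMIs but 0.247% (0.225 to 0.270%) of those of cluster 19 and 0.192% (0.164 to 0.225%) of those of cluster 24, against 0.122% in all other nuclei. None of the 50 reached 50% of its level in cluster 20 in either cluster, and 1 row gave 53.3% and 54.0% of these UMIs. The rows found from the horizontal score were not left out of this choice. The comparison is therefore not fully separate from the score that set these clusters apart. Relative to the share in cluster 20 this was 5.77% and 4.49%.

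Relative to the share in their own cluster, the rows leading clusters 5 and 9 were better represented. All other nuclei held 0.182% and 0.289% of their UMIs in these rows. The share in cluster 19 was 3.21 times that in all other nuclei for the rows of cluster 5. It was 4.51 times for those of cluster 9 and 2.03 times for those of cluster 20. In cluster 24 these values were 1.82, 6.62 and 1.58, so the rows of clusters 5 and 20 were close there by this measure. Rows of some other clusters were as high by it. In cluster 19 those of amacrine clusters 17 and 26 were at 3.32 and 3.12 times. In cluster 24 those of Müller glia cluster 8 were at 15.2, of cluster 10 at 6.72, of amacrine cluster 13 at 3.06 and of ganglion cell cluster 7 at 2.95. The leading rows of amacrine cluster 5 held 0.586% (0.552 to 0.621%) of the UMIs of cluster 19 and 0.332% (0.294 to 0.374%) of those of cluster 24, which is 43.4% and 24.6% of their share in cluster 5 itself. The leading rows of cluster 9 held 1.30% (1.25 to 1.36%) of the UMIs of cluster 19 and 1.92% (1.82 to 2.01%) of those of cluster 24, or 44.1% and 64.7% of the share in cluster 9, and 13 and 25 of the 50 rows reached at least 50% of their level there. Those of cluster 10 reached 21.9% and 49.1% of their own share. Clusters 9 and 10 carry a rod label. The leading rows of the main rod clusters 0, 1 and 3 held 0.115% (0.101 to 0.132%) and 0.112% (0.0908 to 0.137%) of the UMIs of clusters 19 and 24. All other nuclei held 0.711%, but these still include rod-labelled clusters 2, 9, 10 and 16 and the cones. That value is therefore not a level of nuclei without rods. The leading rows of Müller glia (cluster 8) held 0.404% (0.362 to 0.449%) of the UMIs of cluster 24 but 0.0378% (0.0296 to 0.0476%) of those of cluster 19, and 1 row gave 81.4% of the former. With only the 20 leading rows of cluster 9, the value in cluster 19 was 18.0% of the own share, and with the 20 leading rows of cluster 5 that in cluster 24 was 44.6%, so these depend on the number of rows. The leading rows of amacrine cluster 26 held 1.55% in cluster 19, 64.1% of it in 1 row, and 0.558% in cluster 24.

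**Figure D4:**
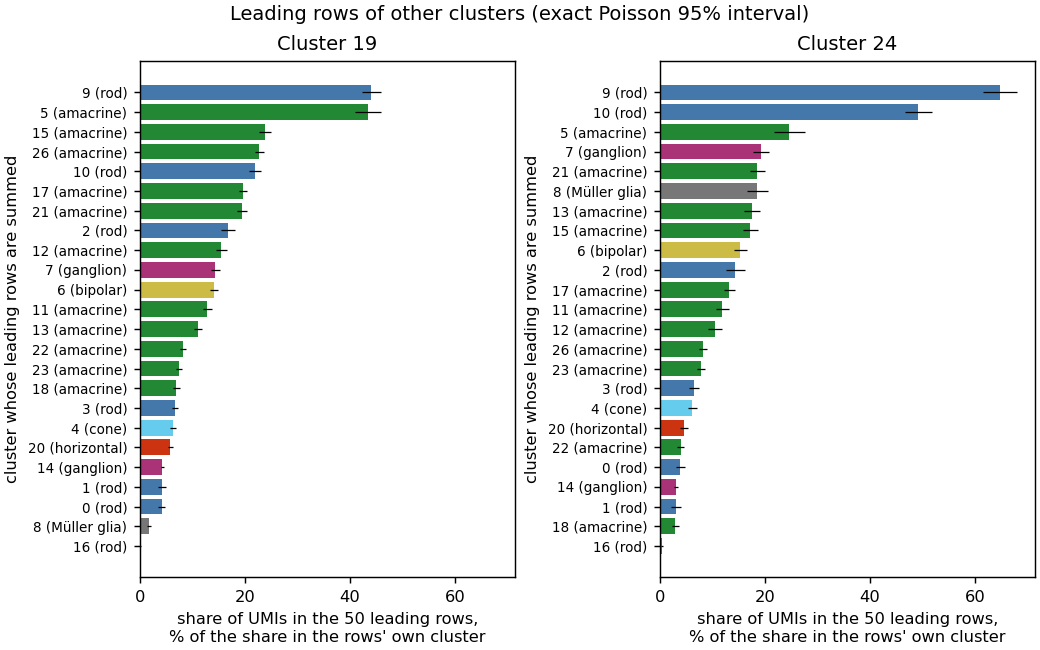
Share of UMIs of cluster 19 (left) and cluster 24 (right) in the 50 leading rows of each other cluster, as a percent of the share in that cluster itself (bars, exact Poisson 95% intervals, coloured by deposited label). The rows of clusters 9 and 5 reach 44.1% and 43.4% in cluster 19, those of cluster 9 reach 64.7% in cluster 24, and those of cluster 20 stay at 5.77% and 4.49%.

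In the deposited embedding both clusters formed islands of their own. Joining nuclei up to 1 unit apart left 1 part in each. Of the 15 nearest nuclei of every member, 97.8% belonged to the same cluster in cluster 19 and 97.5% in cluster 24, and the rest were labelled rods, from clusters 9 and 2 around cluster 19 and from clusters 2 and 3 around cluster 24. None was labelled amacrine or came from cluster 20. Single rod-labelled nuclei lay inside the island of cluster 24, where the median distance from a member to the nearest nucleus of cluster 3 was 0.121 units and of cluster 2 was 0.131. In cluster 20 all neighbours were its own. Measured between cluster centres, amacrine cluster 21 was closest to cluster 19 (2.62 units), and cluster 20 was 8.78 units away. For cluster 24 the closest centre was that of cluster 20 (2.37 units), followed by amacrine cluster 13 (4.07). The embedding thus placed cluster 24 beside cluster 20, which ranked 18th in the summed counts. Distances in such an embedding are not to scale.

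**Figure D5:**
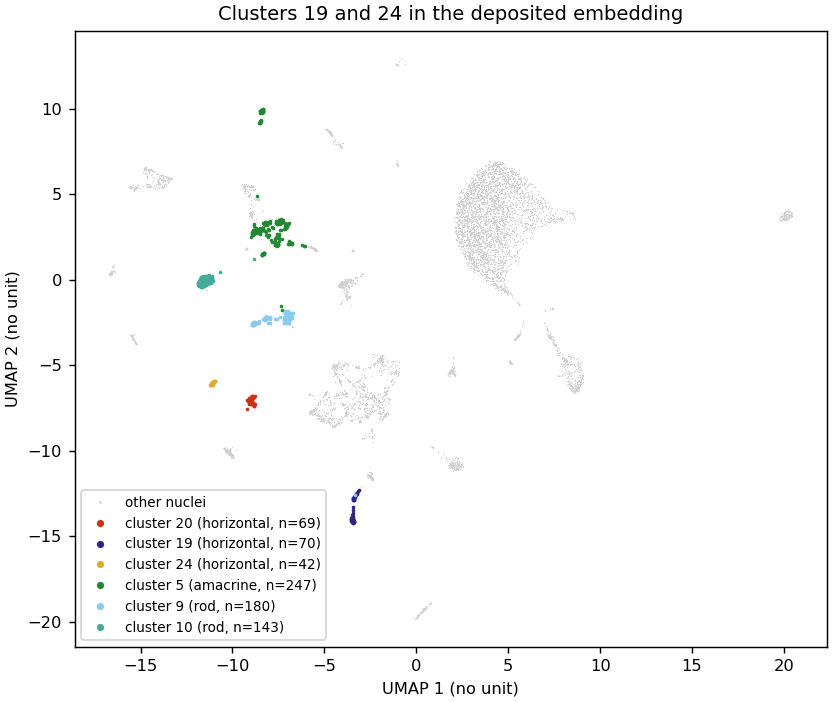
Deposited embedding of all 6542 nuclei (axes without unit), with clusters 19, 24 and 20, all labelled horizontal, and clusters 5, 9 and 10 in colour. Cluster 24 lies 2.37 units from cluster 20 and cluster 19 lies 8.78 units from it, measured between centres.

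The median depth of clusters 19 and 24 lay within the range of the amacrine clusters. The median was 2679.5 UMIs (quartiles 1880 and 3347.75) and 1426 detected genes in cluster 19, and 1915 UMIs (1424.25 and 2425.25) and 1118.5 genes in cluster 24. Cluster 20 had 4267 UMIs, and the 11 amacrine clusters ranged from 1662 in cluster 15 to 3985 in cluster 26. No member had under 702 or over 5213 UMIs, whereas cluster 20 reached 10947. Mitochondrial transcripts made up a median of 0.24% and 0.15% of UMIs, against 0.14% in cluster 20 and 0.061% (cluster 18) to 0.24% (cluster 11) over the amacrine clusters. They exceeded 1% in 5 of 70 nuclei of cluster 19 (7.14%, 2.36 to 15.9%) . For cluster 24 it was 2 of 42 (4.76%, 0.582 to 16.2%). Cluster 20 had 4 of 69 (5.797%, 1.602 to 14.18%), between clusters 19 and 24. Amacrine cluster 12 had 2 of 118 (1.69%, 0.206 to 5.99%), and all these intervals overlap. No member shared its droplet barcode with a nucleus of the other library.

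Clusters 19 and 24 together held 61 wild-type nuclei (1.75%, 1.34 to 2.24%) and 51 knockout nuclei (1.67%, 1.24 to 2.19%). Cluster 19 held 41 wild-type (1.18%, 0.846 to 1.59%) and 29 knockout nuclei (0.948%, 0.636 to 1.36%), which as log2 of the knockout share over the wild-type share is −0.31 with an exact interval of −1.05 to 0.41. Cluster 24 held 20 (0.574%, 0.351 to 0.885%) and 22 (0.719%, 0.451 to 1.09%), a ratio of 0.33 (−0.62 to 1.28). Both intervals hold 0. They cover the counting of nuclei only and say nothing of the spread between animals. Among nuclei labelled horizontal cells the ratio of cluster 24 was −0.07 and that of cluster 19 was −0.71. For cluster 20 the ratio was 1.19 (0.44 to 1.98). Among nuclei labelled horizontal cells, the share of clusters 19 and 24 was 72.6% (61.8 to 81.8%) with wild-type animals and 52.6% (42.2 to 62.8%) with the knockout. They therefore supplied most of the nuclei under the horizontal label in both.

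Within the clusters, the horizontal score differed little between libraries in cluster 19. Its median was 0.15 (interval of the median −0.09 to 0.32) in wild-type and 0.22 (−0.09 to 0.27) in knockout nuclei. In cluster 24 it was −0.07 (−0.11 to 0.40) and 0.23 (−0.10 to 0.45). The step between these medians reflects which side of the gap the middle nucleus fell on: the score was above 0 in 9 of 20 wild-type (45%, 23.1 to 68.5%) and 13 of 22 knockout nuclei (59.1%, 36.4 to 79.3%) of cluster 24, and in 21 of 41 (51.2%, 35.1 to 67.1%) and 19 of 29 (65.5%, 45.7 to 82.1%) of cluster 19. All these intervals overlap. The rod score had the lower median in the knockout library, with −0.13 against −0.37 for cluster 19 and 0.17 against −0.22 for cluster 24, and with overlapping intervals of the medians, and in cluster 20 it was −0.18 and −0.42, with intervals that did not overlap.

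Knockout nuclei of cluster 19 were deeper, with a median of 3357 UMIs (2738 to 3772) against 2356 (1908 to 2646). In cluster 24 the medians were 2167 (1408 to 2799) and 1718 (1485 to 2088). Over all nuclei the libraries had medians of 1552.5 and 1175.5 UMIs. Among nuclei of cluster 19 with 2000 to 4000 UMIs, the knockout minus wild-type difference of the median was −0.026 for the horizontal score in place of 0.069 and −0.17 for the rod score in place of −0.24. Cluster 24 had too few nuclei of each library in any such bin. The libraries were evenly mixed in cluster 24, where knockout nuclei made up 53% of the neighbours of wild-type members and 52.1% of those of knockout members. In cluster 19 these shares were 34.6% and 62.3%, around the 41.4% of its members that were knockout, so nuclei of a library lay nearer to each other. Cluster 20 had the same pattern, with 44.6% and 84.2% around the 66.7% of its members that were knockout. Rows were not compared between the libraries. Matrix columns carry neither a cluster nor a library name, and the tie by position was used for clusters only.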

How the data were processed

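Single-nucleus RNA-seq libraries of 1 wild-type and 1 CLRN1 knockout pool were used. Tools named, without a role, in the submitters' processing notes are DESeq2 1.38.0, Seurat 4.3.0 and Cell Ranger 7.0, and the build is OryCun2.0. Filters on nuclei and steps against doublets were not given in the sources used here, and no doublet caller was run. The authors deposited raw UMI counts as a matrix whose 15806 rows and 6542 columns carry only numbers, the mitochondrial percent of each nucleus, 9 module scores (a score is the authors' value) and embedding coordinates. Libraries came from the library name in the table of nuclei. Matrix columns were tied to nuclei, and so to clusters, by position: totals and detected genes were equal for all 6542 columns, and 110 of the 112 members had a pair of these values that no other nucleus had. Columns were not assigned to libraries. A score was fitted by adding 12 log-normalised rows (scale 10000) greedily and keeping those with a gain in R2 of at least 0.01 and a coefficient of at least 0.1. Nearest profiles were smoothed by adding 0.5 UMIs. The score fit, the nearest-profile step and the fold counts were checked on simulated data. The simulated nuclei were drawn from the offered profiles themselves, so that check does not cover nuclei that belong to none of them. Shares have Clopper-Pearson, sums Poisson and medians order-statistic intervals. The members and lists were chosen with earlier results of these data known. Marker lists and the rule for naming genes (the rows with the largest and smallest ratio to cluster 20) were not applied, since rows carry no gene names. Differences of scores were also taken within UMI bins divided at 1000, 2000 and 4000. Computations used Python 3.11.15, numpy 2.4.6, pandas 2.3.3, SciPy 1.17.1 and matplotlib 3.10.9.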

Additional observations from a re-analysis of the deposited data

Results flagged for a closer look

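The share of nuclei was higher in the knockout library in some clusters with the horizontal label and lower in another. As log2 of the knockout share over the wild-type share of all nuclei, cluster 19 was at −0.31, cluster 24 at 0.33 and cluster 20 at 1.19. Among nuclei labelled horizontal cells cluster 24 was at −0.07 and cluster 19 at −0.71, so the direction of cluster 24 turned with the denominator. Whether the clusters differ in this was not tested, since there is 1 value for each of them. The intervals of clusters 19 and 24 overlap and each holds 0.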

How the results depend on the processing

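No paired analysis was possible because each genotype is 1 library and the columns used carry no animal; the assignment of nuclei to animals by Vireo, which the labels name, was not used here. The log2 ratios of the shares of clusters 19 and 24 stayed within their exact intervals with 4 other denominators or limits; that of cluster 24 changed sign, to −0.070, among nuclei labelled horizontal cells. All 11 amacrine clusters stayed above cluster 20 for both clusters in 6 of 8 other settings of the similarity; 10 did with a pseudocount of 1 CPM and 8 with nuclei thinned to 500 UMIs. The neighbours in the own cluster were 96.4% with 30 neighbours in cluster 19 and 95.7% with 5 in cluster 24. The number of leading rows moved some shares. With 20 rows, the share relative to the rows' own cluster was 44.6% for cluster 5 in cluster 24, 18.0% for cluster 9 in cluster 19 and 0.980% for cluster 20 in cluster 19; with 100 rows it was 37.9% for cluster 5 in cluster 24 and 11.6% for cluster 20 in cluster 19. Thinned sums, chosen after seeing the data, gave 19.7% of rows differing between clusters 24 and 20 and 5.72% between clusters 24 and 9. The cause of these moves was not tested, except that thinning leaves fewer rows to compare. Within UMI bins the difference of the horizontal score in cluster 19 was −0.026 in place of 0.069; only 1 bin held 10 nuclei of each library, and in cluster 24 none did. Depth limits cluster 24 most, with 83684 UMIs in all.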

Other observations

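The rows that led clusters 19 and 24 themselves are a description, since the clusters were made from these counts. The 50 leading rows of cluster 19 held 3.58% of its UMIs, 1.74% of those of amacrine cluster 17, 1.24% of cluster 10 and 0.703% of cluster 24. Amacrine cluster 5 had 0.690% and cluster 20 had 0.543%, both above the 0.367% in all other nuclei. The 50 leading rows of cluster 24 held 3.45% of its UMIs, 1.17% of those of cluster 9, 0.854% of amacrine cluster 17, 0.735% of cluster 10 and 0.667% of cluster 19. Cluster 5 had 0.286%, near the 0.280% in all other nuclei, and cluster 20 had 0.137%, which was below it. The next highest level of these rows was in cluster 20 for 2 of the 50 rows of cluster 19 and for none of cluster 24. It was in rod-labelled clusters 9, 10 or 16 for 21 and 19. That count pools several clusters and shows no lean towards rod-labelled ones, since amacrine clusters were often next as well. For cluster 19 these were cluster 17 (8 rows), 22 (4), 18 (3) and others with 1 row each. For cluster 24 they were clusters 21, 13 and 23 (3 rows each) and others with 1 or 2 rows each.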
